A study of Drosophila melanogaster with 12 samples.

Results

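Gene expression in heads of tbph Δ23 flies was compared with that in heads of w1118 flies, on 6 of the 12 arrays of the series. The members are 3 arrays titled for the tbph Δ23 mutant and 3 titled for the w1118 control, chosen by their titles alone and called biological replicates in the study. All heads were collected 60 h after eclosion. The other 6 arrays held a further loss-of-function allele, tbph Δ142, and tbph Δ23 flies in which UAS-TBPH was driven in neurons by elav-GS-GAL4 under 5 mM RU-486, and they entered the fit of the spread. The study lists 1 tbph Δ23 stock, kept in a w background over a CyO-GFP balancer. A figure legend of the study writes both mutants as homozygous. The sources used here give neither the sex of the flies nor the number of heads. The gene is lost throughout development, so the arrays read adults that grew up without it, and the allele and the rest of its stock's genome cannot be told apart from each other.

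TBPH is the fly homologue of TDP-43, a nuclear RNA-binding protein that acts on splicing, stability and transport of many transcripts. Its loss from the nucleus and its aggregation mark most cases of amyotrophic lateral sclerosis and many of frontotemporal dementia. A fly head holds the brain and retina together with cuticle, antennae, muscle, fat body and hemocytes, so head RNA reads all of these tissues at once, and fewer cells of a type cannot be told apart from less RNA per cell.

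Each value below is a log2 intensity made by the authors with RMA, which corrects background, equalises the distributions of the arrays and summarises the probes of each set. A difference of 1.00 on this scale is a 2-fold change. Of 18952 probe sets, 13647 have a single annotated gene, and they were collapsed by their median to 11982 genes. A gene is said to have changed where limma's adjusted p, Benjamini-Hochberg corrected over all 11982 genes, was under 0.05. The number of arrays limits the precision, and the median standard error of a difference between 3 arrays and 3 was 0.0928. Array medians lay between 5.77 and 5.92 in the series. Each array correlated with the others of its group at 0.995 or more on average in both groups compared. For the rescue arrays, which also entered the fit of the spread, this was lower, at 0.9728, 0.9845 and 0.9851. Around each gene's median over the series, the values of w1118 replicate 2 spread widest of all arrays, with an interquartile range of 0.2733. In the tbph Δ23 arrays this range was 0.1428 to 0.1745. The 7 measured markers of neurons averaged 8.14 to 8.26, although the sets for brp and VGlut lay near 3 to 4, and the photoreceptor markers trp and chp averaged 12.29 to 12.74. The 6 gut and salivary markers averaged 3.81 to 3.95 and 6 markers of ovary and testis 3.15 to 3.29, near the lower end of the scale.

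TBPH itself has 2 probe sets, and the dim one lay near 3.5 in both groups. The brighter measured 7.96, 8.02 and 7.97 in w1118 and 8.13, 8.32 and 8.11 in tbph Δ23, so the mutant arrays were all slightly above the controls. Collapsed to the gene, the difference was 0.10 ± 0.09 (SE) and did not pass the test (adjusted p = 0.521). The brighter set read 5.45, 5.32 and 5.52 in tbph Δ142 and 9.13, 9.63 and 9.78 in the rescue arrays. Where the probes lie on the transcript was not known here, so these values do not check the Δ23 deletion. Of the 8 measured genes on either side of TBPH in gene order, Snap29 (-0.28) and ken (-0.46) were lower and no other passed.

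In tbph Δ23, 2550 of 11982 genes (21.3%) had changed, 1126 higher (9.4%) and 1424 lower (11.9%). Most changes were small. The median size among changed genes was 0.45 on the log2 scale, 1678 changed less than 1.5-fold, and 332 (2.77%) changed at least 2-fold, 159 upwards and 173 downwards. At least 8-fold changes were seen in 17 genes that rose and 10 that fell. The median difference of all genes was -0.016. In 4582 genes (38.2%) the 3 mutant arrays did not overlap with the 3 controls, and 2530 of the 2550 changed genes were among them. A lack of overlap in a changed gene therefore adds little to its call.

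**Figure D1:**
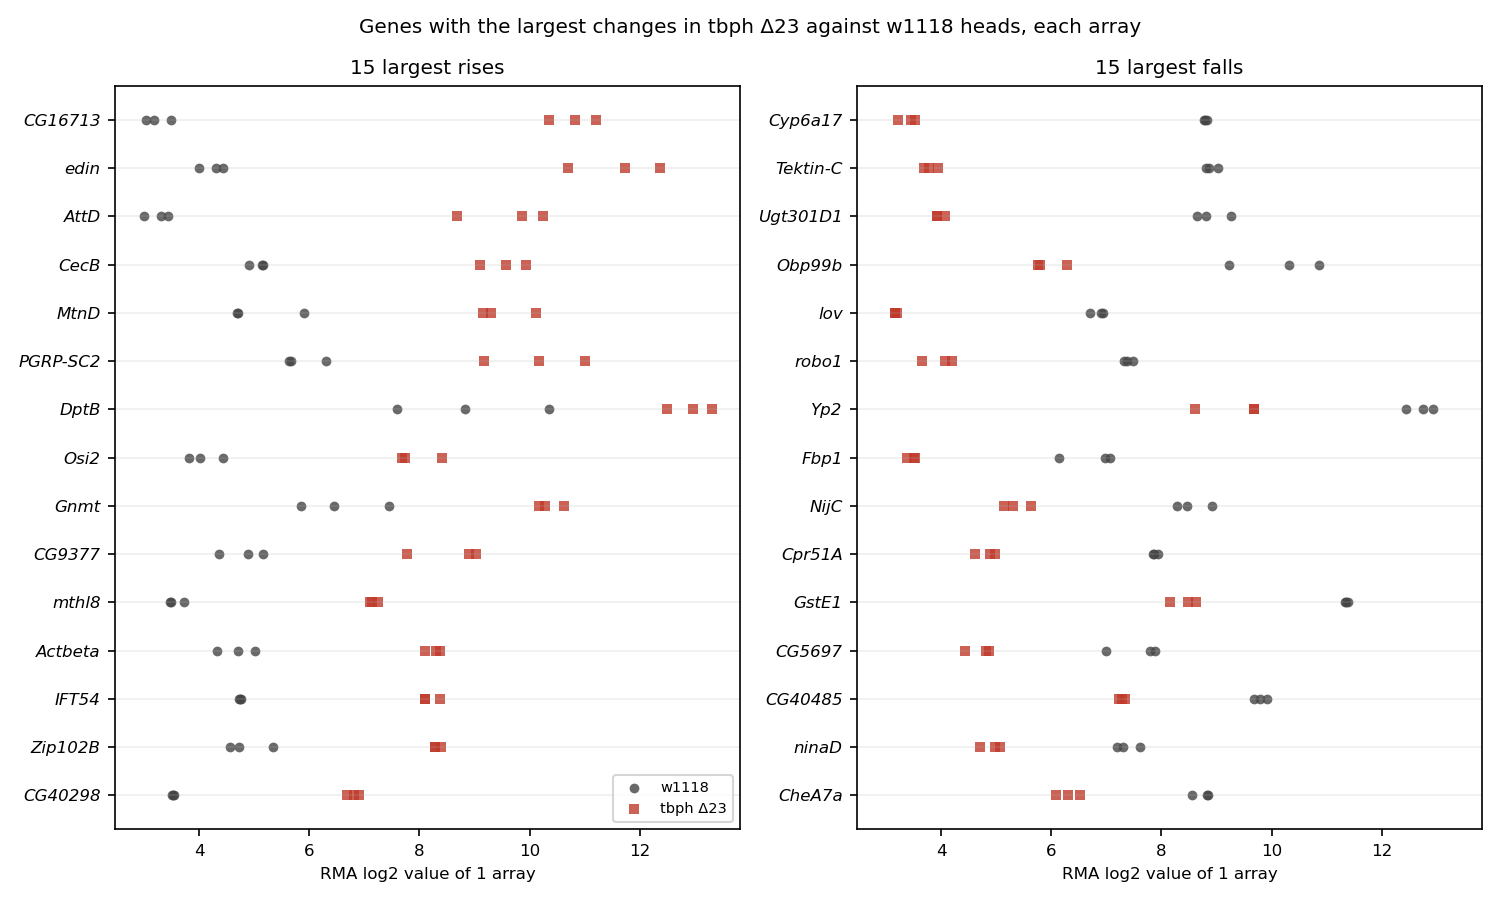
RMA log2 value of each of the 3 w1118 arrays (circles) and 3 tbph Δ23 arrays (squares) for the top 15 rises and the top 15 falls among changed genes whose groups do not overlap. The rises span 3.27 to 7.55 and the falls -2.44 to -5.40 on the log2 scale.

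Beyond immune peptides, the largest rises included a metallothionein, an enzyme of methyl group metabolism, a zinc transporter and an activin ligand. MtnD, a metallothionein that binds copper and other metals, read 4.68, 5.91 and 4.70 in w1118 and 10.11, 9.30 and 9.16 in tbph Δ23. Its groups were far apart, with a rise of 4.42 ± 0.57 (SE, 21.5-fold, adjusted p = 2.08e-04), although w1118 replicate 2 lay over 1 unit above the other controls. Osi2, of the Osiris family of transmembrane proteins, rose from 4.02, 4.43 and 3.81 to 7.75, 7.68 and 8.40 (14.5-fold, adjusted p = 2.97e-07). Gnmt, which consumes S-adenosylmethionine by methylating glycine, rose from 7.45, 5.84 and 6.45 to 10.62, 10.16 and 10.28. The lowest mutant array of Gnmt was still well above the highest control, and the fitted change was 13.7-fold (adjusted p = 3.74e-05). mthl8, a methuselah-like receptor, was near the lower end of the scale in w1118 at 3.50, 3.48 and 3.73 and read 7.14, 7.24 and 7.10 in tbph Δ23 (a difference of 3.59, adjusted p = 1.09e-10). Both of its probe sets rose, by 3.48 and 3.70. Actbeta, an activin-type ligand made by neurons and acting through the receptor babo, read 4.71, 4.33 and 5.01 against 8.10, 8.37 and 8.30 (11.9-fold). Zip102B, a member of the ZIP family of zinc importers, read 4.73, 4.57 and 5.34 against 8.28, 8.40 and 8.29 (10.9-fold). CG40298, with no name for its function here, rose by 3.27 and CG4757 by 3.22.

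The largest falls held enzymes of detoxification, secreted proteins of sense organs and fat body, and regulators of neuronal wiring. Ugt301D1, a UDP-glycosyltransferase, read 8.81, 9.26 and 8.65 in w1118 and 4.07, 3.93 and 3.93 in tbph Δ23, a fall of 4.93 (adjusted p = 6.64e-09). The cytochrome P450 Cyp6a17, which is known for a role in temperature preference, fell by 5.40, from between 8.77 and 8.83 to between 3.22 and 3.52. Tektin-C, a filament protein of axonemes, read 8.86, 9.03 and 8.80 against 3.95, 3.68 and 3.78, a fall of 5.09. All 3 genes ended near the lower end of the scale, where values of about 3 to 4 lie. The files hold no detection calls, so a difference from or to such values, here and in the rises above, may understate the change. Obp99b, an odorant-binding protein gene also expressed in fat body, fell from 10.85, 9.23 and 10.32 to 5.80, 5.76 and 6.29 (-4.19, adjusted p = 2.75e-04). Its control arrays spread by more than 1.5 units, with w1118 replicate 2 the lowest, and did not reach the mutant arrays. The transcription factor gene lov fell by 3.67 and robo1, the receptor of the midline repellent Slit, by 3.42. Cpr51A, a chitin-binding cuticle protein, read 7.84, 7.93 and 7.87 against 4.62, 4.89 and 4.97 (-3.05, adjusted p = 5.83e-09). ninaD, the scavenger receptor that takes up carotenoids for the visual chromophore, read 7.19, 7.30 and 7.60 against 5.07, 4.72 and 4.98 (-2.44, adjusted p = 5.42e-07). CheA7a, of a family of secreted chemosensory proteins, and CG5697 fell by 2.44 and 2.84.

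**Figure D2:**
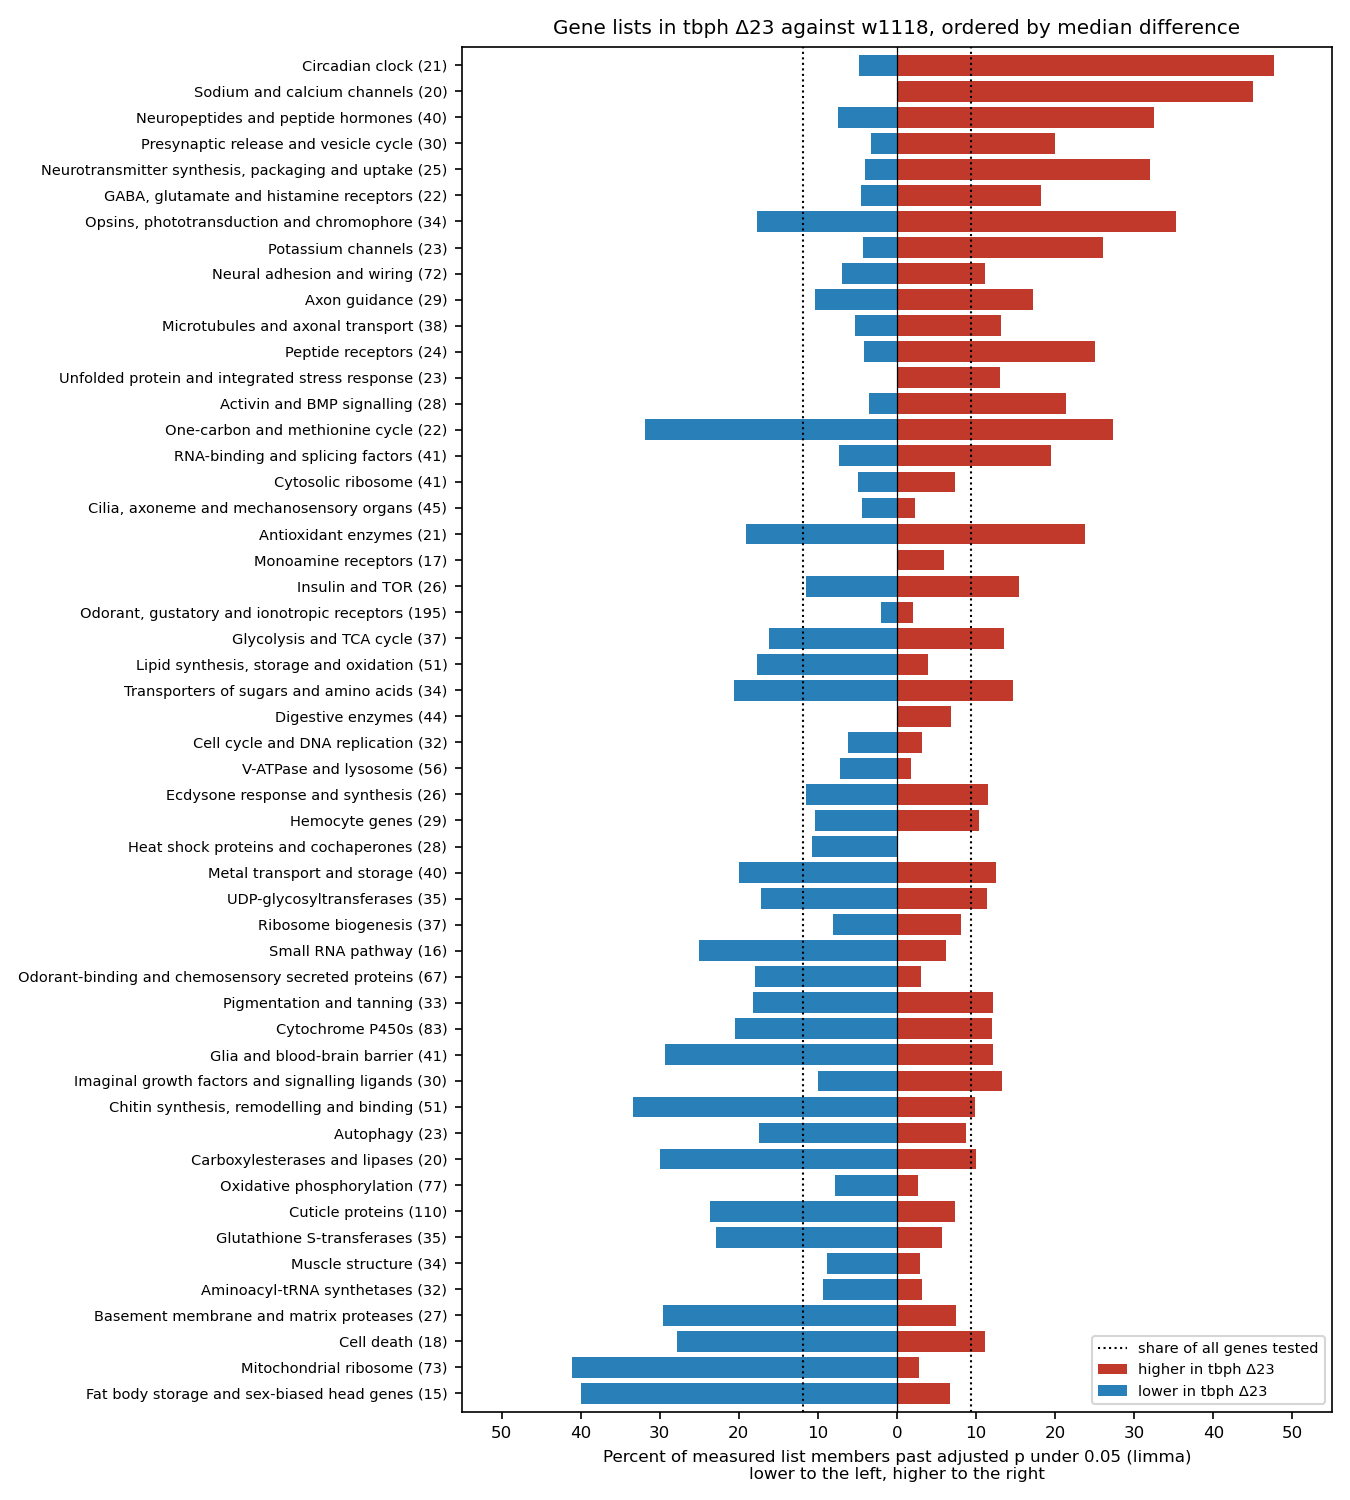
Percent of the measured members of each gene list that were higher (right) or lower (left) in tbph Δ23 than in w1118 at an adjusted p under 0.05, for lists with at least 15 measured members (number in brackets), ordered by the list's median difference. The dotted lines mark the shares of all 11982 genes, 9.4% higher and 11.9% lower, and the clock and the sodium and calcium channels reach furthest to the right while the mitochondrial ribosome and fat body lists reach furthest to the left.

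Changed genes of ion channels were mostly higher, by small amounts, and many channel genes did not pass. Of 20 measured sodium and calcium channel genes, 9 rose and 0 fell, with a median of 0.26 beside -0.016 over all genes and 21.3% of all genes changed in either direction. para, the voltage-gated sodium channel of fly neurons, read 7.44, 7.60 and 7.46 in w1118 and 8.13, 8.20 and 7.97 in tbph Δ23 (0.60, adjusted p = 1.34e-04). The L-type calcium channel Ca-alpha1D read 9.10, 9.04 and 9.06 against 9.58, 9.57 and 9.53 (0.49, adjusted p = 1.06e-04). In both genes every mutant array was above every control. The T-type channel Ca-alpha1T and the auxiliary sodium channel subunit Teh4 rose by 0.58 and 0.47. Among 23 potassium channel genes 6 rose and 1 fell. Slob, which binds the calcium-activated channel Slowpoke, and SK, a small-conductance channel, rose by 0.83 and 0.56, and the inward rectifier Irk3 fell by 0.82. For Slob, 1 of its 2 probe sets carried the change (1.34 against 0.32, the latter with adjusted p = 0.0570). For SK, the 2 brighter sets rose (0.79 and 0.49), and the dimmer sets, at 0.34 and -0.006, did not pass. elav, the pan-neuronal marker, was 0.36 higher, while the other 6 measured neuronal markers did not pass, with differences from -0.19 to 0.23. The part of a changed neuronal share in these results was not tested.

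Neuropeptides and peptide hormones rose in 13 of 40 measured genes (32.5%) and fell in 3 (7.5%), with a median of 0.20. Over all genes, 9.4% rose and 11.9% fell. Lst, limostatin, which restrains insulin release, read 8.46, 8.39 and 8.57 in w1118 and 9.65, 9.68 and 9.35 in tbph Δ23 (1.09, adjusted p = 1.85e-04). FMRFa, a source of peptides that act on muscle and sensory neurons, rose by 0.89. The falls were in Ilp5, an insulin-like peptide of the brain's insulin-producing cells (8.74, 8.58 and 8.68 against 7.27, 7.57 and 7.51), and CCHa2, a nutrient-responsive peptide known from fat body and gut (8.54, 7.87 and 8.83 against 7.09, 7.35 and 7.04). The other fall was in Nplp4 (-0.42, adjusted p = 0.0420), whose call was lost in 6 of the 12 fits with an array left out. Ilp5 and CCHa2 had no overlap between groups and were lower by 1.22 and 1.25. Ilp2, made by the same brain cells as Ilp5 and named here after its value was seen, was 0.46 higher. In the insulin and TOR list, 4 of 26 genes rose and 3 fell, a share of 26.9% beside 21.3% of all genes. The largest change was in sug, a zinc finger transcription factor of the sugar response, which read 8.24, 8.69 and 8.28 against 6.88, 6.22 and 6.12 (adjusted p = 3.70e-05).

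Transmitter enzymes and receptors were also measured. Of 25 genes of transmitter synthesis, packaging and uptake 8 rose and 1 fell, a share of 36% beside 21.3% of all genes. Hdc, which makes histamine, the transmitter of photoreceptors, rose by 0.53, Ddc of dopamine and serotonin synthesis by 0.49, Ace, which breaks down acetylcholine, by 0.61 and Tdc1, a tyrosine decarboxylase, by 0.66. Of 22 GABA, glutamate and histamine receptor genes 4 rose and 1 fell, a share of 22.7%. Among them were Ekar, a kainate-type receptor of the eye (0.82), and KaiR1D (-1.16), also kainate-type. Without rescue replicate 1 these 5 became 8. Nicotinic receptor subunits changed in 2 of 9 genes (22.2%) and monoamine receptors in 1 of 17 (5.88%), where DopEcR rose by 0.54. Arc1, a retrovirus-like capsid gene that responds to neuronal activity, rose from 7.82, 7.89 and 8.08 to 9.88, 9.14 and 9.32 (2.85-fold, adjusted p = 3.70e-05), and both of its probe sets rose (1.48 and 1.55). Arc2 rose by 0.68. The activity-regulated list as a whole had 5 rises and no fall among 12 genes, a share of 41.7%. The 5 rises became 3 without w1118 replicate 1 or 2 or without tbph Δ23 replicate 3.

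In the neural adhesion list 8 of 72 genes rose and 5 fell, a share of 18.1% beside 21.3% of all genes, and these 13 became 8 without tbph Δ23 replicate 2. DIP-alpha, an immunoglobulin protein that pairs synaptic partners, stood out at 5.29, 5.00 and 5.24 in w1118 against 6.81, 7.03 and 7.08 in tbph Δ23 (1.80, adjusted p = 9.04e-07). Among 29 axon guidance genes 5 rose and 3 fell (27.6%), and the actin regulator ena rose by 1.23. These 8 became 4 without any 1 of the w1118 arrays and 3 without tbph Δ23 replicate 1 or 2, while lov, robo1 and ena passed in each of those fits. In the transport list Aplip1, which links cargo and JNK kinases to kinesin, read 7.57, 7.09 and 7.39 against 8.53, 8.60 and 8.61 (1.23, adjusted p = 2.81e-05).

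The circadian clock list had 10 rises and 1 fall among 21 genes, with a median of 0.27. These are 47.6% and 4.76%, beside 9.4% and 11.9% of all genes. The genes tim and per encode the partner proteins that repress their own transcription in the clock. tim read 6.78, 6.94 and 6.67 in w1118 and 8.19, 7.96 and 7.94 in tbph Δ23 (1.23, adjusted p = 7.27e-04). per read 6.15, 5.82 and 6.07 against 7.47, 7.19 and 6.98 (1.20, adjusted p = 0.00857). Pdp1, an activator in the same network, rose by 0.78 (adjusted p = 6.77e-04). The groups did not overlap in any of these genes. Flies were kept in a light and dark cycle, but the hour of collection within it was not known here, and its part in these values was not tested.

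In the eye, 12 of 34 phototransduction, opsin and chromophore genes rose (35.3%) and 6 fell (17.6%), beside 9.4% and 11.9% of all genes. Pph13, a homeobox factor needed for photoreceptor differentiation, read 7.16, 7.33 and 7.06 against 8.25, 8.23 and 8.27 (1.07, adjusted p = 2.14e-06). The photoreceptor markers trp and chp were 0.34 and 0.27 higher. The value of Galphaq, the G protein subunit that couples rhodopsin to phospholipase C, depends on the probe set. Its median probe set rose by 1.09, while the brightest, at 12.73 in w1118, differed by -0.12 and the dimmest by 0.13, and neither of these passed. The falls were led by ninaD and retm (-1.07). The opsins ninaE, Rh3, Rh4, Rh5 and Rh6 and the phospholipase norpA have no probe set with a single annotated gene.

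One-carbon metabolism moved in both directions, with 6 of 22 genes higher (27.3%) and 7 lower (31.8%), beside 9.4% and 11.9% of all genes. Besides Gnmt, Nmdmc, a mitochondrial enzyme of folate metabolism, rose from 8.16, 8.25 and 8.42 to 10.25, 10.22 and 10.12 (1.92, adjusted p = 1.41e-05), and Sardh, which oxidises the sarcosine that Gnmt makes, rose from 6.03, 6.05 and 6.48 to 7.55, 7.59 and 7.24 (1.27). CG10621 fell from 8.78, 8.92 and 9.10 to 6.59, 6.73 and 6.88 (-2.20, adjusted p = 1.90e-06). The spread within each group of these 3 genes was under 0.5, less than the distance between groups. Odc1, an ornithine decarboxylase at the entry to polyamine synthesis, fell by 0.78.

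Metal handling genes were higher in 5 of 40 (12.5%) and lower in 8 (20%), beside 9.4% and 11.9% of all genes. Tsf1, the secreted iron carrier transferrin, rose by 1.83, with its 2 brighter probe sets at 1.83 and 1.28 and the dim set at 0.21 (adjusted p = 0.0578). Zip89B rose by 1.14. MtnA, another metallothionein, singled out after its value was seen, moved the other way from MtnD and fell by 0.83. Antioxidant enzymes were split as well, with 5 of 21 higher (23.8%) and 4 lower (19%). Mitochondrial Sod2 read 10.76, 10.79 and 10.72 in w1118 and 10.20, 10.14 and 10.12 in tbph Δ23 (-0.60, adjusted p = 5.93e-05). Extracellular Sod3 rose by 0.75 as the mean of a dim probe set that rose by 1.65 and a bright one that differed by -0.14 and did not pass.

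The mitochondrial ribosome list had 30 of 73 genes lower (41.1%) and 2 higher (2.74%), beside 11.9% and 9.4% of all genes. Its median was -0.19. Its members fell by small amounts. mRpL18 read 7.58, 7.80 and 7.67 against 6.87, 6.91 and 6.75 (-0.84), mRpL39 fell by 0.83, tko, the ribosomal protein of the small mitochondrial subunit behind the technical knockout phenotype, by 0.82 and mRpL41 by 0.54. The 32 changed members became 19 without w1118 replicate 2 or without tbph Δ23 replicate 1 and 21 without tbph Δ23 replicate 2 or 3. In other lists 8 of 77 oxidative phosphorylation genes and 5 of 41 cytosolic ribosomal protein genes had changed, 10.4% and 12.2% beside 21.3% of all genes. The 8 became 4 without w1118 replicate 1 or 3 or tbph Δ23 replicate 1 or 2, and the 5 became 1 or 2 without any 1 of the 12 arrays. In fuel metabolism whd, the carnitine palmitoyltransferase that admits fatty acids to mitochondria, rose from 5.67, 5.47 and 5.71 to 6.86, 6.83 and 6.80 (1.21). Its bright probe set rose by 2.44 and its dim one, near 3.3, differed by -0.010. Glut1, a glucose transporter, rose by 1.36 as the median of its probe sets on each array, which did not come from the same set throughout. Its sets changed by 1.50, 1.57 and -0.10, the last of which did not pass. Gpdh1, glycerol-3-phosphate dehydrogenase, fell by 0.80, the phosphorylase Glyp by 0.68 and AkhR, the receptor of the lipid- and sugar-mobilising hormone Akh, by 0.84. The Gpdh1 sets at -0.71, -1.01 and -1.35 passed, and the one at -0.25 did not.

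Of 110 cuticle protein genes 26 fell (23.6%) and 8 rose (7.27%), and of 51 genes of chitin synthesis, remodelling and binding 17 fell (33.3%) and 5 rose (9.8%), beside 11.9% and 9.4% of all genes. The list medians were -0.09 and -0.07. Cpr64Aa averaged 8.89 ± 0.11 (SD, n = 3) in w1118 and 6.89 ± 0.21 (SD, n = 3) in tbph Δ23 (adjusted p = 2.14e-06 in limma). Peritrophin-A, a chitin-binding protein, read 8.85, 8.91 and 9.10 against 7.20, 7.25 and 7.41 (-1.67, adjusted p = 1.01e-06). Both were lower in every mutant array. reb, required for chitin deposition, fell by 1.00, as did the chitin synthase gene kkv by 0.89, the latter named after its value was seen. On the other side Idgf1, a secreted chitinase-like growth factor, rose by 1.13 and tyn, a zona pellucida domain protein of the apical matrix, by 1.05. Idgf1, Idgf2 and Idgf3 lie next to each other on 2L between CG5888 and dac, and these 5 neighbours formed the longest run of genes changed in a single direction, all higher by 0.30 to 1.13. Within the run, Idgf1 and Idgf2 passed in all 12 fits with an array left out, dac in 10, Idgf3 in 8 and CG5888 in 7.

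Over all genes 11.9% fell and 9.4% rose, and the detoxification families are given beside these shares. Cytochrome P450 genes fell in 17 of 83 (20.5%) and rose in 10 (12%), with Cyp4e3 up by 1.73 and Cyp6a23, of the same family as Cyp6a17, up by 1.41. Glutathione S-transferases fell in 8 of 35 (22.9%) and rose in 2 (5.71%). GstE1 read 11.35, 11.33 and 11.38 against 8.62, 8.16 and 8.48 (-2.94) and GstE5 fell by 1.76, while GstE14, which acts in ecdysone synthesis, rose by 1.44. UDP-glycosyltransferases fell in 6 of 35 (17.1%) and rose in 4 (11.4%). Ugt37A3 read 8.17, 7.44 and 7.43 against 4.52, 5.70 and 6.23 (-2.19, adjusted p = 0.00300), with mutant arrays spread over 1.7 units. Of the odorant-binding and related secreted proteins 12 of 67 fell and 2 rose. Obp19b read 7.92, 7.89 and 7.93 against 5.89, 5.91 and 5.86 (-2.02, adjusted p = 1.12e-04) and Obp8a rose by 1.77. The olfactory, gustatory and ionotropic receptors themselves changed in 8 of 195 genes (4.1%), and the median level of the list was 3.22 in w1118. The 8 became 5 without tbph Δ23 replicate 1. Or63a was higher by 0.81.

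Glial and blood-brain barrier genes fell in 12 of 41 (29.3%) and rose in 5 (12.2%), beside 11.9% and 9.4% of all genes. Mdr65, an efflux transporter of the barrier, read 9.70, 9.83 and 9.71 against 9.13, 9.23 and 9.35 (-0.51), and Mdr49, a related transporter, read 8.14, 8.30 and 8.12 against 8.77, 8.82 and 9.18 (0.74). NLaz, a lipocalin of glia, fell by 0.67. Of 6 measured glial markers repo and wrapper were lower by 0.33 and 0.38 and the other 4 did not pass. The basement membrane list had 8 falls (29.6%) and 2 rises (7.41%) among 27 genes. The falls included the integrin subunit scb (-0.93), nidogen Ndg (-0.75) and the prolyl hydroxylase PH4alphaEFB (-0.68). The 10 changed members of this list became 6 without w1118 replicate 1 and 5 without tbph Δ23 replicate 2. Muscle structure genes changed in 4 of 34 (11.8%, beside 21.3% of all genes), and in 7 without rescue replicate 1. TpnC4, a troponin C, read 3.31, 3.06 and 3.04 against 5.58, 5.81 and 5.86 (2.62 ± 0.62 SE, adjusted p = 0.0101) and Act79B, a muscle actin, fell by 1.78. Among 29 hemocyte genes 3 rose and 3 fell, a share of 20.7%. NimB1 and NimB2, secreted Nimrod proteins, were up by 1.63 and 1.04 and the receptor NimC4 was down by 1.65.

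Several fat body products were much lower. Of 15 storage and sex-biased head genes 6 fell (40%) and 1 rose (6.67%), beside 11.9% and 9.4% of all genes. Their median was -0.76. The median rests on single arrays, since it was -0.05 without w1118 replicate 1, -0.39 without w1118 replicate 3 and -0.11 without tbph Δ23 replicate 1, and -1.18 without tbph Δ23 replicate 2, while 6 genes were lower in each of the fits with an array left out. Fbp1, the receptor for storage proteins in fat body, read 6.15, 7.06 and 6.98 against 3.50, 3.53 and 3.39 (-3.25, adjusted p = 2.08e-05). The yolk proteins, secreted by the female fat body, were lower in all mutant arrays. Yp2 read 12.75, 12.44 and 12.93 in w1118 and 8.60, 9.68 and 9.68 in tbph Δ23 (-3.38, adjusted p = 4.33e-06). Yp1 read 12.97, 12.52 and 13.09 against 9.80, 11.12 and 11.54 (-2.04), and Yp3 read 12.52, 10.90 and 12.46 against 10.21, 10.41 and 10.65 (-1.54, adjusted p = 0.00770). The mean of the 7 measured fat body markers was 9.54 to 10.74 in the w1118 arrays and 7.94 to 9.01 in tbph Δ23. The 4 that were lower were Fbp1 and the yolk protein genes Yp1, Yp2 and Yp3. Lsp2, also among the 7, read 8.42, 8.16 and 9.12 against 6.03, 8.54 and 8.38 and did not pass (-0.92, adjusted p = 0.52). None of the 7 was at the bottom of the scale in w1118. Replicate 2 was the lowest w1118 array in Yp1, Yp2, Yp3, apolpp and fit, and Fbp1 and the yolk protein genes also passed without it. The lipid carrier apolpp did not pass (0.16, adjusted p = 0.710). The female-biased fat body gene fit varied from 4.03 to 9.24 within w1118 and from 4.87 to 7.09 within tbph Δ23 and did not pass (adjusted p = 0.744). Sxl, the switch gene of female development, rose by 0.67 with 3 probe sets at 0.66 to 0.67, and msl-2 (0.13, adjusted p = 0.561) and tra (-0.15, adjusted p = 0.323) did not pass. The sex makeup of the arrays was not known here, and its part in the fat body values was not tested.

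Both alleles were set against the same 3 w1118 arrays, which tie the comparisons together. In tbph Δ142, 2996 genes (25%) had changed against w1118, and 418 (3.49%) differed between the alleles. Of the 649 genes that passed in tbph Δ23 and not in tbph Δ142, 547 had no called difference between the alleles. The remaining 102 (0.851% of all genes), 61 higher and 41 lower in tbph Δ23, are called here changed only in tbph Δ23. This count is among the less stable, since leaving out tbph Δ23 replicate 3 made it 40 and replicate 2 made it 60, and leaving out tbph Δ142 replicate 1 made it 61 and replicate 3 made it 59. The 3 yolk protein genes were among the 6 largest falls of this kind, with tbph Δ142 at -0.55, -0.12 and 0.53 from w1118 for Yp2, Yp1 and Yp3.

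**Figure D3:**
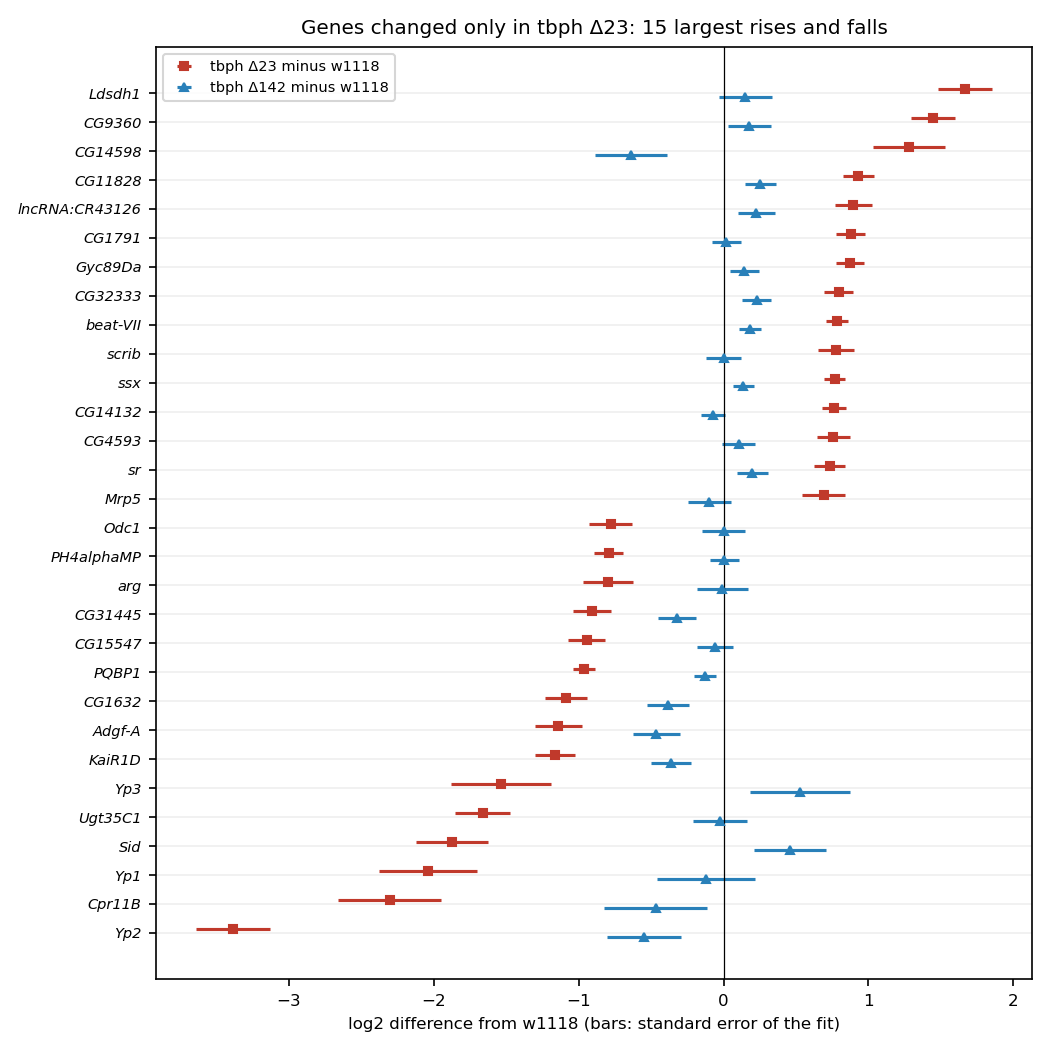
Difference from w1118 on the log2 scale, with the standard error of the fit, in tbph Δ23 (squares) and tbph Δ142 (triangles) for the top 15 rises and the top 15 falls among genes changed only in tbph Δ23. The tbph Δ23 values run from -3.38 (Yp2) to 1.67 (Ldsdh1), while those of tbph Δ142 lie between -0.64 and 0.53.

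Among genes raised only in tbph Δ23, Ldsdh1, a dehydrogenase of lipid droplets, read 8.90, 8.79 and 8.54 in w1118, 10.59, 10.25 and 10.40 in tbph Δ23 and 8.93, 8.44 and 9.32 in tbph Δ142. Its Δ23 arrays were the 3 highest of the 9, at 1.67 above w1118 (adjusted p = 7.35e-05). CG9360 rose by 1.44 and read 9.11, 8.91 and 9.62 in tbph Δ23 against at most 8.13 in w1118 and tbph Δ142. Gyc89Da, an atypical guanylyl cyclase that responds to low oxygen, was at the bottom of the scale in w1118 (3.02, 3.32 and 3.17) and read 3.92, 4.17 and 4.05 in tbph Δ23. The stripe gene sr, an Egr-type transcription factor, rose by 0.73 against 0.20 in tbph Δ142, and ssx, a paralogue of Sxl, by 0.77 against 0.14. scrib, a scaffold of epithelial and synaptic polarity, rose by 0.78 as the median of 5 probe sets taken on each array. Different sets held that median in w1118 and in tbph Δ23, and their own changes were 0.37 (not passed) and 1.20. Of the 5 sets 3 passed, and the brightest, at 8.75 in w1118, differed by -0.008. One of the passing scrib sets was at 6.28 in w1118, 6.92 in tbph Δ23 and also 6.81 in tbph Δ142 (group means), so the difference between the alleles was not seen in each of its sets. The immunoglobulin gene beat-VII rose in both of its probe sets. The larger change was 4.49, 4.57 and 4.65 in w1118 to 5.75, 5.85 and 5.72, with 4.68, 4.61 and 4.70 in tbph Δ142. In the dimmer set, near the lower end of the scale, the alleles lay close together. Its group means were 3.369 in w1118, 3.735 in tbph Δ23 and 3.64 in tbph Δ142. Smaller rises of this kind included the synaptotagmin Sytalpha (0.47) and jvl (0.68), a microtubule-associated protein picked after its value was seen. Ldsdh1, CG9360, Gyc89Da, ssx and scrib met the rule in all 12 fits with an array left out, beat-VII in 11, jvl in 10, sr in 8 and Sytalpha in 7.

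Among genes lowered only in tbph Δ23, Sid, a stress-induced nuclease, read 8.72, 9.34 and 8.51 in w1118, 7.21, 6.95 and 6.79 in tbph Δ23 and 9.14, 9.16 and 9.65 in tbph Δ142. Its tbph Δ23 arrays were the 3 lowest (-1.88, adjusted p = 2.62e-04). Cpr11B fell from 8.91, 9.10 and 8.98 to 6.95, 6.50 and 6.62, with tbph Δ142 between 8.41 and 8.59. Ugt35C1 read 7.87, 7.40 and 7.88, then 6.02, 6.42 and 5.71 in tbph Δ23, and 7.95, 7.54 and 7.58 in tbph Δ142. In all of these the Δ23 arrays stood clear of both other groups, which the rule that chose them favours. KaiR1D, the kainate-type receptor above, fell by 1.16, and Adgf-A, a secreted adenosine deaminase, by 1.14. Both were also below w1118 in tbph Δ142, at -0.36 and -0.46, and narrowly missed the threshold there (adjusted p = 0.0741 and 0.0585 in limma). For KaiR1D and Adgf-A the alleles therefore differed in the size of the fall. PQBP1, the fly homologue of a polyglutamine-binding splicing protein linked to intellectual disability in humans, read 7.43, 7.59 and 7.44 against 6.42, 6.65 and 6.50 (-0.96, adjusted p = 5.39e-06) and 7.42, 7.28 and 7.38 in tbph Δ142. Odc1 and arg, the arginase that feeds ornithine to it, fell by 0.78 and 0.80, with both near 0 in tbph Δ142 (0.000392 and -0.010). Sid, Ugt35C1, PQBP1 and Yp3 met the rule in all 12 fits with an array left out, Yp1 and Yp2 in 11, KaiR1D in 10, Odc1 in 8, arg in 7, Cpr11B in 6 and Adgf-A in 2, and each of these genes was itself lower than w1118 in all 12.

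Other genes changed in the same direction in both alleles but by different amounts. IFT54, a subunit of the machinery that builds cilia, read 4.74, 4.75 and 4.73 in w1118, 8.11, 8.37 and 8.11 in tbph Δ23 and 5.50, 5.93 and 5.73 in tbph Δ142. The 3 groups did not overlap, and the allele difference was -2.47 (tbph Δ142 minus tbph Δ23, adjusted p = 1.05e-06). MtnD read 6.82, 6.90 and 6.96 in tbph Δ142, below its tbph Δ23 arrays by 2.63 (adjusted p = 0.0283). tko, at -0.82 in tbph Δ23, was at -0.21 in tbph Δ142 (adjusted p of the difference 4.57e-04). Lst rose further in tbph Δ142 (1.83, adjusted p of the difference 0.0147).

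A further 5 genes changed in opposite directions in the alleles, with a rise in tbph Δ23 and a fall in tbph Δ142 in each. CG8483 read 8.97, 9.40 and 9.08 in w1118, 11.10, 11.04 and 11.03 in tbph Δ23 and 8.26, 7.71 and 7.94 in tbph Δ142, with no overlap between the 3 groups (1.91 and -1.18). CG4686 read 7.90, 7.91 and 7.91, then 8.72, 8.68 and 8.67, and 7.72, 7.68 and 7.70 (0.79 and -0.20). CG5909 (0.47 and -0.62), CG6125 (0.28 and -0.88) and jef (0.33 and -0.27) had smaller rises in tbph Δ23, with adjusted p of 0.0178, 0.0408 and 0.0180. The Δ23 call of CG5909 was lost without w1118 replicate 1 or 3 or tbph Δ23 replicate 3, that of jef without replicate 2 of either group, and that of CG6125 without w1118 replicate 1 or 3, any tbph Δ23 array, tbph Δ142 replicate 1 or rescue replicate 2. Leaving out w1118 replicate 1 made the count 3, w1118 replicate 3 made it 1, tbph Δ23 replicate 1 made it 9, and tbph Δ142 replicate 2 or 3 made it 3.

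**Figure D4:**
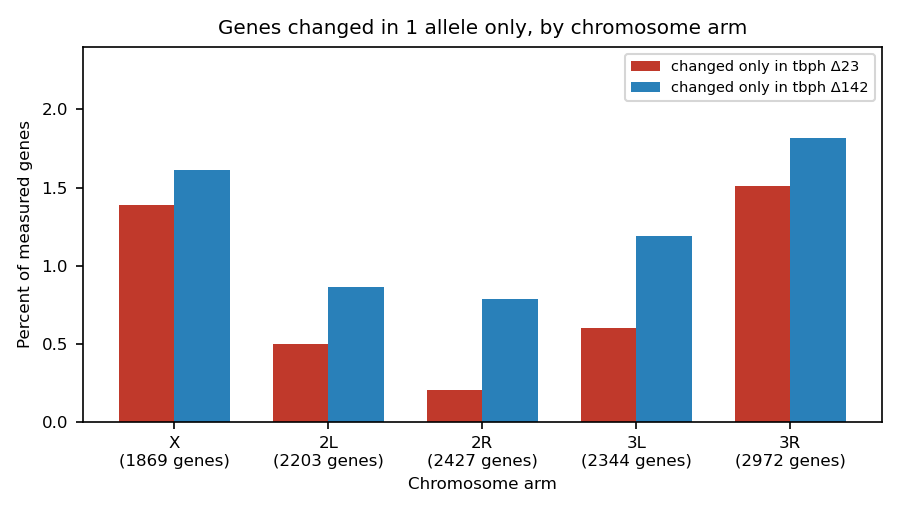
Percent of the measured genes of each chromosome arm that changed only in tbph Δ23 or, by the same rule with the alleles exchanged, only in tbph Δ142. For tbph Δ23 the shares are 1.39% on X and 1.51% on 3R and 0.206% on 2R, the arm that holds TBPH.

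Along the genome, changed genes made up 20.3% to 21.9% of the measured genes on each of the 5 long arms. In 10 bins per arm in gene order, their share ran from 16% to 30.9%. Genes changed only in tbph Δ23 made up 1.39% of 1869 genes on X and 1.51% of 2972 on 3R, against 0.499% on 2L, 0.206% on 2R and 0.597% on 3L, so that X and 3R held 26 and 45 of the 102. On 3R they rose in 26 and fell in 19. With 3R split in gene order into 10 equal bins, the last pair of bins held 9 and 10 of them (3.03% and 3.37% of 297 genes each), and the other bins 1 to 6. Among the 5 long arms, genes changed only in tbph Δ142 also had their highest shares on X (1.61%) and 3R (1.82%). The small chromosome 4 held 1 gene of the first kind and 2 of the second among 65. TBPH lies on 2R, and with 1 stock per allele the allele and other differences between the stocks cannot be told apart.

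Probe sets of the same gene did not always move together. Each of the 13647 probe sets was therefore also tested singly, an analysis added after values were seen. Of 1094 genes with at least 2 probe sets, 21 had sets that passed in opposite directions in tbph Δ23. Their collapsed value can hide the change. Of the genes chosen for naming, 36 had at least 2 probe sets. Among these 36, 14 had sets of opposite sign and 27 had at least 1 set that did not pass. Which transcripts each set reads was not known here. The genes described next were picked after their values were seen.

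**Figure D5:**
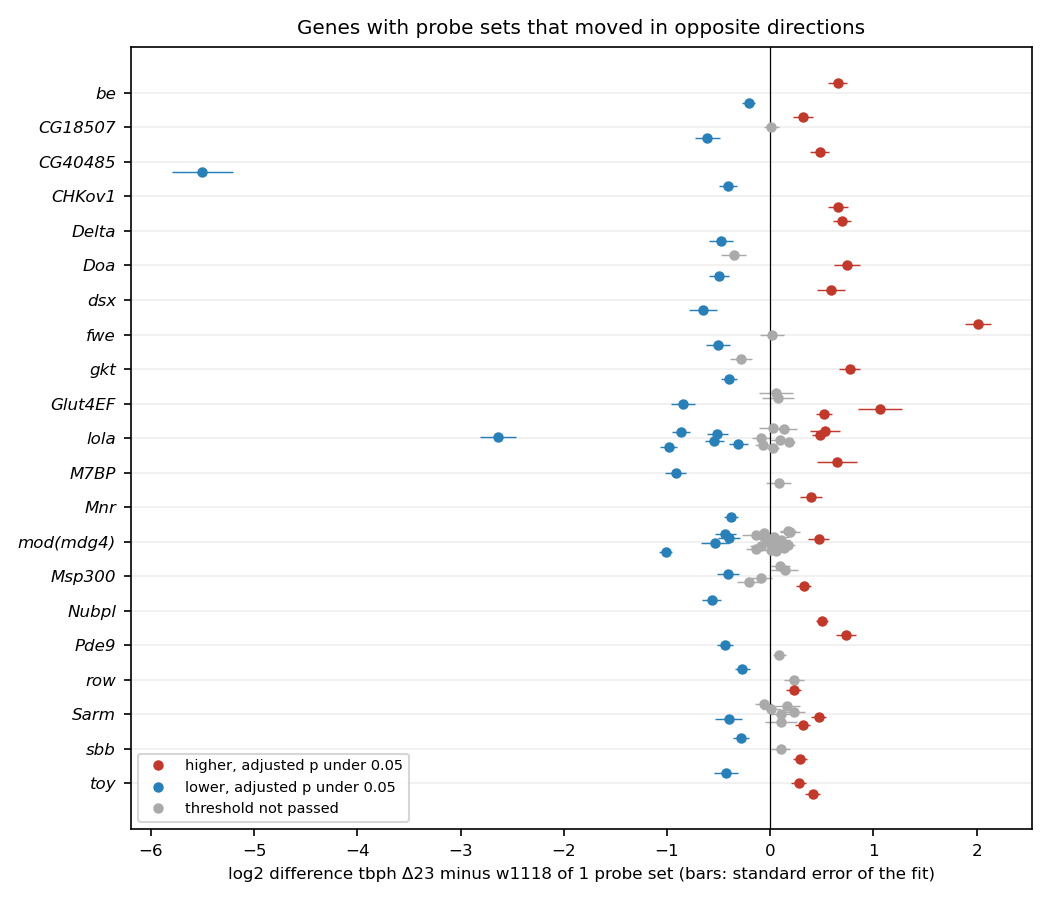
Difference of tbph Δ23 from w1118 on the log2 scale, with the standard error of the fit, for each probe set of the 21 genes whose probe sets passed in opposite directions (coloured where adjusted p is under 0.05, grey otherwise). The values run from -5.50 in a set of CG40485 to 2.02 in a set of fwe.

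fwe, flower, whose transcript forms mark cells in competition and which also acts at synaptic vesicles, was measured at 0.02 by its collapsed value. Its dimmest set rose from 4.23, 4.42 and 4.35 to 6.39, 6.50 and 6.17 (adjusted p = 6.76e-07), and its brightest fell from 9.95, 9.65 and 9.95 to 9.15, 9.43 and 9.46 (adjusted p = 0.00871). In each of these sets the groups did not overlap. lola, a BTB zinc finger gene with many alternative transcripts and roles in axon growth, had 15 sets, of which 6 fell and 2 rose. A lola set fell from 6.59, 6.54 and 6.49 to 4.14, 3.66 and 3.92 (-2.64, adjusted p = 1.41e-06), another from 8.80, 8.96 and 8.80 to 7.95, 7.81 and 7.84 (-0.99), and the brightest stayed at 9.07, 9.01 and 9.03 against 9.04, 9.10 and 9.05. mod(mdg4), a chromatin gene with a similar wealth of alternative ends, had 22 sets, of which 4 fell and 1 rose, with the largest fall at -1.01. Over all genes 21.3% had changed in either direction. A gene with many sets also has more chances to hold sets that pass in opposite directions.

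CG40485 was read by a set that fell from 10.56, 10.31 and 10.65 to 4.96, 4.82 and 5.23 and by another that rose from 9.02, 9.03 and 9.18 to 9.60, 9.64 and 9.43. Collapsed to the mean of these, the gene fell by 2.51. dsx, the transcription factor gene at the end of the sex determination cascade, which is spliced into female and male forms, had a set that rose from 6.18, 6.11 and 6.41 to 6.74, 6.84 and 6.89 (adjusted p = 0.00936) and one that fell from 6.80, 6.39 and 6.79 to 5.83, 6.17 and 6.02 (adjusted p = 0.00481). Both dsx sets had groups that did not overlap, and the same sets differed in the same directions in tbph Δ142 (group means 6.72 and 6.15). Doa, a kinase that phosphorylates splicing factors, had a dim set higher by 0.75 and a bright one lower by 0.50. Other genes with this pattern included Pde9, a phosphodiesterase (0.73 and -0.44), and the muscle and nuclear anchoring gene Msp300 (0.32 and -0.41). The NADase Sarm, an executor of axon degeneration, had sets that rose by 0.47 and 0.31 and one that fell (-0.40). The eye development gene toy had 0.41 and 0.28 against -0.43. The falling sets of Msp300 and toy were dim, averaging 4.43 and 3.50 in w1118. Those of row and sbb in the figure averaged 3.66 and 3.77, near the lower end of the scale.

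Splicing and RNA-binding factors themselves changed in 11 of 41 genes, 8 higher and 3 lower, a share of 26.8% beside 21.3%. Hrb87F, of the hnRNP A family, read 9.36, 9.47 and 9.33 against 8.73, 8.67 and 8.84 (-0.64, adjusted p = 1.20e-04), and sm, an hnRNP L homologue, rose by 0.52. The groups of Hrb87F were separate on all arrays. The 11 became 7 without w1118 replicate 2, and also 7 with array medians centred. Of 6 measured genes reported as TBPH targets in flies, a list drawn up from general knowledge, 1 passed, dlg1 at 0.25, and that call was lost without any 1 of the w1118 arrays and without tbph Δ23 replicate 2 or 3.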

How the data were processed

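Head RNA was hybridised to Affymetrix Drosophila Genome 2.0 arrays, and the authors deposited log2 values made by RMA (background correction, quantile normalization, summarization per probe set), spanning 2.32 to 14.23. The genome build and annotation of the deposited values are not given in the sources used here. Of 18952 probe sets, 402 with several annotated genes and 4903 not listed in the platform annotation were left out. Symbols of 13544 probe sets were updated through RefSeq (assembly Release 6 plus ISO1 MT), used only for names and gene order. Genes were the median of their probe sets on each array, without a filter on level. A single limma 3.58.1 model (R 4.3.3) of the 4 group means with empirical Bayes gave 3 contrasts (tbph Δ23 and tbph Δ142 each against w1118, and tbph Δ142 against tbph Δ23), so residual spread is pooled over all 12 arrays. Tests were two-sided, with p-values adjusted by Benjamini-Hochberg in each contrast over every gene.

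The members, the 56 gene lists and the rule for names were chosen with earlier results of these data known, and lists were written from general knowledge. Named were TBPH, the 15 largest rises and falls among changed genes with non-overlapping arrays, the same among genes changed only in tbph Δ23, genes of opposite direction, and up to 4 changed members per list. Gene lists are described by counts and medians only. No pairing of arrays was used, since arrays that share a replicate number had residual correlations of -0.212 to 0.0914. Alternatives were other sets of arrays, each array left out, a block per replicate number, the brightest probe set, other scalings, a minimum mean of 5, and a trended, robust fit. The steps were tested on simulated data.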

Additional observations from a re-analysis of the deposited data

Results flagged for a closer look

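The alleles differed, by limma's test of tbph Δ142 minus tbph Δ23 itself (adjusted p under 0.05), in 58 of the genes chosen for naming. Each value here is that difference on the log2 scale, and genes were partly chosen for it. Where the change was seen only in tbph Δ23 as a rise, it was -1.92 for CG14598, -1.52 for Ldsdh1, -1.26 for CG9360, -0.86 for CG1791, -0.84 for CG14132, -0.79 for Mrp5, -0.78 for scrib, -0.73 for Gyc89Da, -0.67 for CG11828 and lncRNA:CR43126, -0.65 for CG4593, -0.63 for ssx, -0.60 for beat-VII and PK1-R, -0.57 for CG32333, -0.53 for sr, -0.48 for Sytalpha and -0.42 for Pdfr. Where it was seen only in tbph Δ23 as a fall, it was 2.83 for Yp2, 2.33 for Sid, 2.06 for Yp3, 1.92 for Yp1, 1.83 for Cpr11B, 1.64 for Ugt35C1, 0.88 for CG15547, 0.83 for PQBP1, 0.80 for KaiR1D and PH4alphaMP, 0.79 for arg, 0.78 for Odc1, 0.70 for CG1632, 0.68 for Adgf-A, 0.59 for CG31445 and 0.39 for Cyp18a1.

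Genes changed in opposite directions had -3.08 (CG8483), -1.15 (CG6125), -1.09 (CG5909), -0.99 (CG4686) and -0.60 (jef). Genes higher in both alleles had -2.63 (MtnD), -2.47 (IFT54), -1.14 (Osi2), -0.78 (CecB), -0.60 (tyn), -0.35 (Idh3b), 0.37 (dlp), 0.47 (NimC1), 0.69 (Mal-B2), 0.71 (Obp8a), 0.74 (Lst) and 0.90 (Sardh). Genes lower in both had -0.89 (Eip78C), -0.56 (NLaz), -0.44 (shi), 0.61 (tko), 0.99 (NijC) and 1.06 (CG10621). TBPH differed by -1.52 as the mean of its 2 probe sets, of which the dim one lay near the lower end of the scale.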

How the results depend on the processing

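Of 5029 alternative values of the 248 named genes, 4744 kept their direction and side of the threshold, 279 lost the call and 6 reversed. The call of 190 genes was kept throughout. With the brightest probe set in place of the median, CG40485 (0.48), Galphaq (-0.12), Sod3 (-0.14), scrib (-0.0079) and shi (0.069) reversed, and CG40485 also did when its brighter and dimmer sets were tested singly (0.48 for 1 of them). The cause was not tested. With 1 array left out, changed genes numbered 1897 to 2778, those higher 810 to 1220, those lower 1087 to 1558, those changed at least 2-fold 321 to 355, genes changed only in tbph Δ23 40 to 139 and genes of opposite direction 1 to 9. The 2778 changed genes and the 139 changed only in tbph Δ23 came without rescue replicate 1. In other fits the changed genes were 2322 to 2715 and those only in tbph Δ23 76 to 134. Genes of opposite direction were 3 with array medians centred, 3 with quantiles equalised again and 8 among genes with a mean of at least 5. With the replicate number as a block, 2322 genes changed, 2261 of them shared, and 76 changed only in tbph Δ23. Same-numbered arrays of the 2 groups did not deviate together (residual correlations -0.0892 to 0.0235), so the labels share a number and no pairing was used. The share of higher among changed genes lay between 42.1% and 48.2%. Where an array left out leaves 2 in a group, the spread is still pooled over all groups. Genes near the lower end of the scale, such as most chemoreceptors, give little room to detect a fall.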
